A study of Mus musculus with 2 samples.

Results

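The 10 genes described here encode Wnt ligands and secreted proteins that act on Wnt signals: the ligands Wnt2, Wnt4, Wnt5a and Wnt10b, the secreted Frizzled-related proteins Sfrp1, Sfrp2 and Sfrp4, the Dickkopf family members Dkk2 and Dkk3, and Wisp1, which the matrices list under its current symbol Ccn4. They were chosen by name from 27995 genes listed in both of the study's single-cell matrices, and all 10 were found in both. The cells were stromal vascular fractions of inguinal white (iWAT) and interscapular brown (iBAT) adipose tissue, pooled from wild-type C57BL/6N mice of 8 to 12 weeks and grown in culture to 80% confluency. Of the 4 cultures per depot, 1 stayed untreated and the others were given FGF1, FGF2 and FGF8 for 48 h at 5.5 nM. They were tagged, and 10000 cells per tag were merged into 1 library. No treatment per cell was used here, so every value describes the pooled cultures of a depot. With 1 library per depot there was no replicate and no test, and all intervals below are 95% intervals of counting error only.

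Wnt ligands are lipid-modified secreted proteins that bind Frizzled receptors, with LRP5 or LRP6 as co-receptors where the signal runs through beta-catenin, and with ROR or RYK receptors where it does not. Secreted Frizzled-related proteins bind Wnts outside the cell through a domain like that of the receptors, Dickkopf proteins such as DKK2 bind the LRP co-receptors, and DKK3 is a divergent member of that family. In adipose tissue, Wnt signals through beta-catenin are known to hold precursor cells back from becoming adipocytes, and WNT10B is the ligand best known for it.

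The genes lie apart from each other in the genome, with Sfrp2 and Dkk2 both on chromosome 3 and Wnt10b and Wisp1 both on chromosome 15. In GRCm39 with GENCODE annotation, Sfrp2 spans chr3:83673481-83681623 and Dkk2 spans chr3:131790336-131886065, both on the plus strand. These 2 genes are shown by sequence because they differed between the depots in opposite directions. RefSeq promoter windows were matched for 5 of the 10 genes (Wnt2, Wnt4, Wnt10b, Sfrp2 and Dkk2) and were not matched for Wnt5a, Sfrp1, Sfrp4, Dkk3 and Wisp1. The 250 bases before the RefSeq start are printed 5′ to 3′ in GRCm38.p6, a different build from the positions above, at chr3:83766071-83766320 for Sfrp2 and chr3:132085042-132085291 for Dkk2, with capitals marking matches to TATAAA.
Sfrp2: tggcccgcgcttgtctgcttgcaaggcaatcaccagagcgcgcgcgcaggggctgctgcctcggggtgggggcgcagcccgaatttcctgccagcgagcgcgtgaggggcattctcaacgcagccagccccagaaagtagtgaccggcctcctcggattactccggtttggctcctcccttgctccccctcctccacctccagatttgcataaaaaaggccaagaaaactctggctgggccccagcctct
Dkk2: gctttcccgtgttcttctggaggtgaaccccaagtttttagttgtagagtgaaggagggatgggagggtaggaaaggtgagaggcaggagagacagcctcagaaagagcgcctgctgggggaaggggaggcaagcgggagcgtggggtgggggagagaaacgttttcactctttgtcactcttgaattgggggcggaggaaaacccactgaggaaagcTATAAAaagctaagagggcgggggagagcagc
On either strand, the Dkk2 window held 1 match to TATAAA, beginning at position -32 from the start, and the Sfrp2 window held 0. The letters CTTTGA, the core bound by TCF and LEF factors, and the E-box CANNTG matched neither window. Over all 32851 windows of this length, 12.4% held TATAAA, 13.8% held CTTTGA and 66.2% held CANNTG. The Sfrp2 window had 63.6% G and C with 16 CpG dinucleotides, and the Dkk2 window had 55.6% with 7, beside medians of 52.4% and 6 over all windows.

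The iWAT library held 29962 barcodes and 503611913 UMIs, and the iBAT library 28636 barcodes and 815235820 UMIs, a UMI being the tag that lets each captured molecule count once. Cells with more than 200 and fewer than 7500 genes and under 30% mitochondrial UMIs were kept, which left 29744 and 28215 cells with medians of 16204 and 27235 UMIs. A total of 8 barcodes occurred in both libraries. Xist stood at 345 CPM (its UMIs per 1000000 UMIs of all genes in the cells summed) in iWAT against 0.0505 in iBAT, and the Y-linked Ddx3y at 1.20 and 81.9 CPM. Depot therefore cannot be told apart from these differences in sex-linked transcripts and depth, or from anything else that set the libraries apart.

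Cells were called positive for a marker at 2 or more of its UMIs. Markers of a cell type were counted as higher at 2-fold or more over the comparison cells and 10 CPM or more in the class. Pdgfra, the receptor that marks adipose stromal precursors, gave 10822 positive cells in iWAT (36.4% of kept cells) and 23784 in iBAT (84.3%). The comparison cells for this gate were those with no Pdgfra UMI. In iWAT, 3 of 7 stromal markers were higher (Pdgfra, Dcn and Lum), beside the adipocyte marker Lpl. In iBAT only Pdgfra itself was. Of the other stromal markers there, Pdgfrb, Col3a1, Dcn and Lum were higher short of 2-fold, and Col1a1 and Col1a2 were lower. The Pdgfra-positive cells are therefore named by the gate alone. Epcam gave 4493 cells in iWAT, in which 7 of 7 epithelial markers were at least 2-fold higher than in the comparison cells, beside the single markers Sema3c, Sox10 and Rgs5 of other lists, and 3 cells in iBAT. Adipoq gave 110 cells in iBAT, with 8 of 8 adipocyte markers higher, beside Dcn, Ngfr and Abcc9 of the stromal, Schwann and mural lists, and 3 cells in iWAT. Sox10 gave 793 cells in iBAT with 6 of 6 Schwann cell markers higher, beside 3 of 6 immune markers (Cd68, Lyz2 and Fcer1g), 1 of 5 mural markers (Cspg4) and 1 of 6 interstitial progenitor markers (Sema3c). In iWAT, however, 1486 of 1690 Sox10-positive cells were also Epcam-positive, with 6 of 7 epithelial and 2 of 6 Schwann markers higher, so these cells are named by the gate alone. Dpp4 gave 2240 cells in iWAT and 295 in iBAT. Of 6 markers of interstitial progenitors, however, only Dpp4 itself was at least 2-fold higher in either library, and these cells too are named by the gate alone. Short of 2-fold, Cd55, Anxa3, Sema3c and Bmp7 were higher in both libraries, and Pi16 was higher in iBAT but not in iWAT.

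Between the depots, the decoys Sfrp1 and Sfrp2 differed most of the 10 genes. In Pdgfra-positive cells Sfrp1 and Sfrp2 were higher in iBAT and Dkk2 was higher in iWAT, while Wnt5a and Dkk3 stood at nearly the same level in both. Of the 10 genes, 6 reached 10 CPM in either library, and Wnt2, Wnt4, Wnt10b and Sfrp4 did not. Of these 6, 2 were at least 2-fold higher in iBAT, where 3.51% of the 8987 genes at this level were, and 1 was at least 2-fold higher in iWAT, where 4.40% were. Of the 3, Sfrp2 reached the filter through iBAT alone. Over all kept cells the same 3 genes passed 2-fold in the same directions, beside 3.96% of genes higher in iBAT and 4.98% higher in iWAT. The median log2 ratio of the 6 genes was -0.0019, and that of all genes at this level was 0.04.

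**Figure D1:**
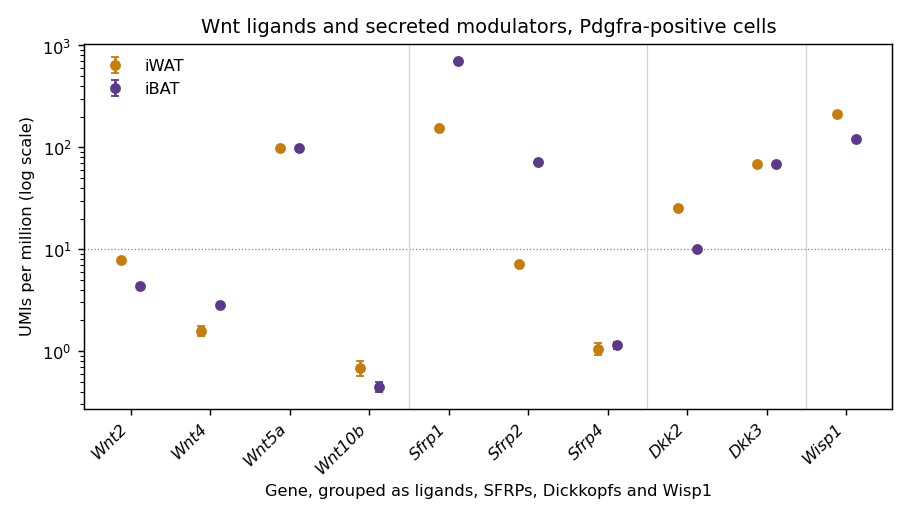
CPM of each gene (log scale) in the Pdgfra-positive cells of the iWAT and iBAT libraries, with exact Poisson 95% intervals, and the 10 CPM filter as a dotted line. Sfrp1 (156 against 709 CPM) and Sfrp2 (7.12 against 71.4 CPM) lie higher in iBAT and Dkk2 (25.7 against 10.04 CPM) higher in iWAT, while the points of Wnt5a and of Dkk3 lie nearly level.

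Among the ligands, Wnt5a, which signals mainly through ROR receptors without beta-catenin, was by far the most abundant. It stood at 98.8 CPM in iWAT against 99.4 in iBAT, a ratio of 1.01 (0.991 to 1.02), and made up 90.7% and 92.8% of the UMIs of the 4 ligands. Wnt2, a known marker of adipose interstitial progenitors, stood at 7.87 CPM in iWAT against 4.40 in iBAT. That is 1.79-fold higher in iWAT (1.68 to 1.90). Wnt4, a ligand known from kidney and gonad development, was the reverse of this, at 1.57 CPM in iWAT against 2.82 in iBAT. Wnt10b was the scarcest of the 10 genes in these cells, at 0.682 CPM (144 UMIs) in iWAT and 0.444 CPM (307 UMIs) in iBAT. Over all kept cells, Wnt10b was 4.03-fold higher in iWAT, at 1.85 against 0.459 CPM, which was below the 10 CPM filter. In iWAT, 46.6% of its UMIs came from Epcam-positive cells, which held 11.5% of all UMIs.

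Of the decoys, Sfrp1 stood at 156 CPM in iWAT against 709 in iBAT, which is 4.55-fold higher in iBAT (4.50 to 4.61). Sfrp2 stood at 7.12 CPM in iWAT against 71.4 in iBAT, a 10.03-fold difference (9.53 to 10.6). Both were lower in iWAT than in iBAT at every Pdgfra level. With cells grouped by 2 to 3, 4 to 7 and 8 or more Pdgfra UMIs, Sfrp1 stood at 136, 178 and 210 CPM in iWAT and at 606, 687 and 760 CPM in iBAT. Sfrp2 in the same groups stood at 5.69, 7.81 and 15.4 CPM in iWAT and at 63.1, 69.2 and 75.9 CPM in iBAT. The highest iWAT group thus stayed below the lowest iBAT group for both decoys. Sfrp4, a decoy known from obese adipose tissue and pancreatic islets, was at 1.06 CPM in iWAT against 1.14 in iBAT, a ratio of 1.07 (0.922 to 1.25).

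Dkk2, which binds LRP5 and LRP6 and blocks them together with Kremen proteins, stood at 25.7 CPM in iWAT against 10.04 in iBAT. It was 2.56-fold higher in iWAT (2.47 to 2.65), or -1.35 as the log2 ratio of iBAT over iWAT. In the 3 Pdgfra groups Dkk2 stood at 22.2, 29.5 and 36.1 CPM in iWAT and at 9.86, 11.1 and 9.36 CPM in iBAT, so it was higher in iWAT in each of them. Dkk3 did not differ beyond counting error, at 68.9 CPM in iWAT against 68.3 in iBAT with a ratio of 0.991 (0.973 to 1.01). Wisp1, a matricellular protein encoded by a gene known to respond to Wnt1, was the most abundant of the 10 genes in iWAT. It stood at 214 CPM in iWAT against 120 in iBAT, 1.78-fold higher in iWAT and short of 2-fold. In both libraries Wisp1 was lower in cells with more Pdgfra, from 226 to 202 to 169 CPM across the 3 groups in iWAT and from 174 to 128 to 95.5 CPM in iBAT.

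The balance of decoys to ligands differed with these genes. Together the 4 ligands reached 109 CPM in iWAT against 107 in iBAT, and the 3 decoys 164 against 781 CPM. Per ligand UMI the Pdgfra-positive cells had 1.504 decoy UMIs in iWAT against 7.30 in iBAT, and most decoy UMIs were of Sfrp1 (95.01% and 90.7%). These sums cover only the chosen genes. Other ligands (Wnt9a and Wnt11) and another decoy (Frzb) that also differed between the depots are given below and were not counted here.

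Per cell, Sfrp1, Sfrp2, Dkk2 and Wisp1 differed between the depots in the same directions as in CPM. With each cell thinned at random to 10000 UMIs, which left out 771 shallower Pdgfra-positive iWAT cells and none of iBAT, a Sfrp1 UMI was present in 43.0% of 10051 cells in iWAT and in 77.4% of 23784 cells in iBAT. For Sfrp2 the shares were 4.92% and 24.5%, and for Dkk2 they were 11.1% and 5.65%. Wisp1 was the most widely detected gene in iWAT, in 78.8% of cells there and 54.5% in iBAT. Wnt5a was present in 52.4% and 55.7% of cells and Dkk3 in 43.3% and 39.5%. The remaining genes were rare, Wnt2 at 6.48% and 3.94%, Wnt4 at 1.38% and 2.83%, Sfrp4 at 0.876% and 1.09%, and Wnt10b at 0.597% and 0.416%.

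Free RNA can give a cell UMIs of genes it does not express, so immune cells, marked by Ptprc, were measured in the same way. In the Ptprc-positive cells with 0 Pdgfra UMIs (64 in iWAT and 114 in iBAT at this depth), Sfrp1 was present in 7.81% and 21.9%, Wisp1 in 20.3% and 4.39% and Wnt5a in 9.38% and 2.63%. The Pdgfra-positive shares of these 3 genes, of Dkk2 and Dkk3, and of Sfrp2 in iBAT lay above the intervals of the immune cells. The shares of Wnt2, Wnt4, Wnt10b and Sfrp4 in Pdgfra-positive cells lay within or below those intervals in both libraries, as did Sfrp2 in iWAT, so at this depth they cannot be told from background by share alone. In CPM, some of them lay above the intervals of the same immune cells. Sfrp2 in iWAT was at 7.12 CPM against 0 UMIs (upper bound 3.08 CPM), and Wnt4 in iBAT at 2.82 CPM against 0 UMIs (upper bound 1.48 CPM). Wnt2 was at 7.87 against 0.835 CPM in iWAT (upper bound 4.65) and at 4.40 against 0.801 CPM in iBAT (upper bound 2.89). Wnt10b and Sfrp4 in both libraries and Wnt4 in iWAT lay within those intervals. Median UMIs were 18919.5 and 28188.5 in the Pdgfra-positive cells and 11447 and 21002.5 in the immune cells before thinning. Asking for 0 Pdgfra UMIs also leaves out immune cells that hold free stromal RNA, so the background can be understated. Over all Ptprc-positive cells (126 in iWAT and 189 in iBAT), Sfrp1 stood at 12.2 and 104 CPM, Wisp1 at 57.0 and 21.3 CPM and Wnt5a at 23.3 and 15.1 CPM.

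**Figure D2:**
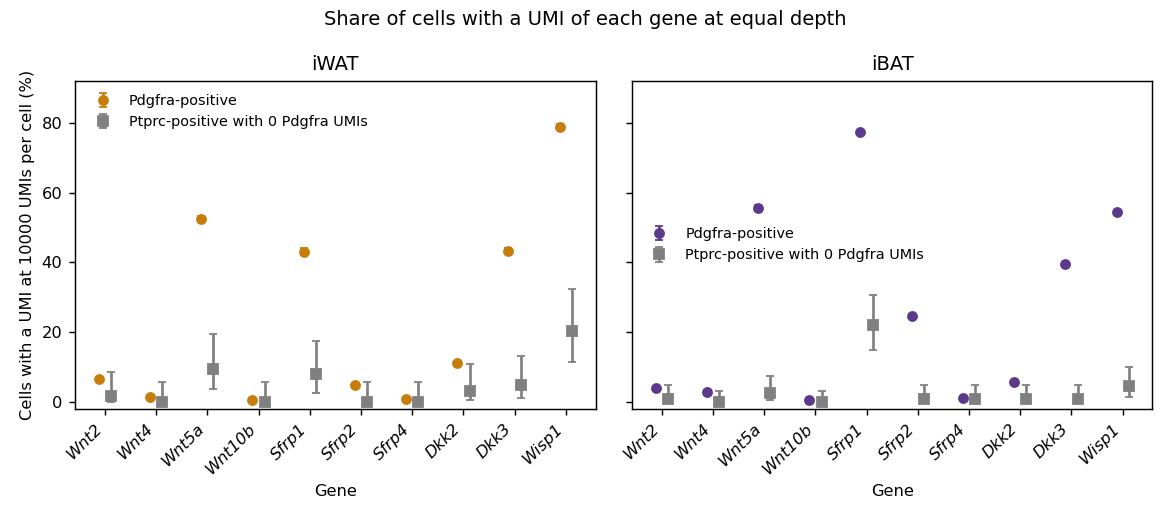
Percent of cells with at least 1 UMI of each gene after thinning to 10000 UMIs per cell, in Pdgfra-positive cells (circles) and in Ptprc-positive cells with 0 Pdgfra UMIs (grey squares), with exact Clopper-Pearson 95% intervals, for iWAT (left) and iBAT (right). Sfrp1 reaches 77.4% of Pdgfra-positive cells in iBAT against 43.0% in iWAT, and Wisp1 reaches 78.8% in iWAT against 54.5% in iBAT.

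Sfrp1 had the highest variance over its mean, a measure that grows with the level. At 10000 UMIs it was 9.03 in iWAT and 22.3 in iBAT, with single cells holding up to 99 and 153 UMIs, and the top 10% of cells held 62.9% and 51.2% of its UMIs. By the share in the top 10% of cells, which is higher for genes found in fewer cells, Dkk2 in iWAT (95.6%) and Sfrp2 in iBAT (77.9%) were more uneven than Sfrp1. In variance over mean, Sfrp1 was followed in iBAT by Sfrp2 (7.62) and Dkk2 (2.81), and in iWAT by Dkk2 (4.17) and Sfrp2 (3.14). Wnt5a was spread more evenly, with 1.74 and 1.59. A median Pdgfra-positive cell held UMIs of 2 of the 10 genes in iWAT and of 3 in iBAT. Of these cells, 55.8% in iWAT and 59.0% in iBAT held a UMI of any of the 4 ligands, and 45.2% and 80.3% held one of any decoy. Cells with a ligand and no decoy made up 30.7% in iWAT and 12.0% in iBAT.

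Sfrp1 and Sfrp2 had the highest correlation of any pair of the 10 genes in both libraries. In iBAT, Sfrp2 was detected in 28.2% of the cells with Sfrp1 and in 12.0% of those without, and in iWAT in 7.26% and 3.16%. Pearson's r of log counts over cells was 0.332 in iBAT (23784 cells) and 0.140 in iWAT (10051 cells), as a description of cells that share a library and a treatment pool. Sfrp1 and Dkk2 went the other way in iBAT, Dkk2 being detected in 4.46% of cells with Sfrp1 and in 9.73% of those without, with r of -0.136 there and -0.04 in iWAT. Sfrp1 and Dkk3 had r of 0.275 in iBAT and 0.01 in iWAT. Among 6053 genes at 20 CPM or more in both libraries, those most like Sfrp1 by the lower r of the 2 libraries were Sod3, an extracellular superoxide dismutase (0.417 in iWAT, 0.530 in iBAT), Col3a1, a fibrillar collagen (0.388, 0.434), and Serping1, the C1 inhibitor (0.379, 0.514). For Wisp1 they were Timp3, a metalloproteinase inhibitor (0.254, 0.214), Loxl2, a collagen crosslinking enzyme (0.198, 0.256), and Col1a1 (0.194, 0.379). The closest genes to Wnt5a reached only 0.132 and 0.104 (Has2, a hyaluronan synthase), and those to Dkk3 0.111 and 0.226 (the chemokine Cxcl12), values too weak to tell the genes apart from many others.

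Epithelial cells, found in iWAT alone in number, carried another set. Each marker class was set against Pdgfra-positive cells of the same library that had no UMI of the class marker. Epcam-positive cells had Sfrp2 at 30.8 CPM against 7.09 CPM, 4.34-fold higher (4.04 to 4.66), and Dkk2 at 61.0 against 25.4 CPM, 2.40-fold higher (2.30 to 2.51). These 2 genes were the only ones of 6 above the filter that were at least 2-fold higher, where 9.42% of all genes were, and Sfrp2 reached the filter through the Epcam-positive cells alone. Sfrp1 was the 1 gene at least 2-fold lower, at 37.4 against 159 CPM, where 10.2% of all genes were. Wnt5a was at 112 against 98.6 CPM and Wisp1 at 115 against 214 CPM. Wnt10b stood at 7.46 against 0.654 CPM and Wnt4 at 3.45 against 1.57 CPM, both below the filter. Thinned to equal depth, Wnt10b was present in 6.10% of Epcam-positive cells and 0.597% of Pdgfra-positive cells, Sfrp2 in 22.6% and 4.92%, and Dkk2 in 12.5% and 11.1%. Thinning left out 1690 of the 4493 Epcam-positive cells.

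The Dkk2 of the epithelial cells came largely from a small group of them. Foxa1, a transcription factor of luminal epithelium, had 2 or more UMIs in 348 of the 4493 Epcam-positive cells and 0 in 3832, a split chosen after values had been seen. Dkk2 stood at 496 CPM in the Foxa1-positive cells and 19.3 CPM in those without Foxa1, 25.7-fold higher (23.7 to 27.8), and 1796 of the 3531 Dkk2 UMIs of the Epcam-positive cells lay in those 348. Wnt5a stood at 662 against 59.0 CPM, 11.2-fold higher (10.6 to 11.8). Of the scarce ligands, Wnt4 stood at 24.6 against 1.14 CPM and Wnt10b at 16.9 against 6.06 CPM, while Wnt2 was at 1.11 CPM (4 UMIs) against 1.72 CPM. Wnt4 and Wnt10b reached the filter through the Foxa1-positive cells alone. The decoys Sfrp1 and Sfrp2 were lower: Sfrp1 was at 19.1 against 39.3 CPM and Sfrp2 was at 22.1 against 31.8 CPM. Of all genes at 10 CPM or more, 5.76% were at least 2-fold higher in the Foxa1-positive cells and 3.56% were at least 2-fold lower.

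At 10000 UMIs, which only 140 of the 348 Foxa1-positive cells reached, Dkk2 was present in 75.0% (67.0 to 81.9) and Wnt5a in 82.1% (74.8 to 88.1), against 7.13% and 29.9% of the cells without Foxa1. At 5000 UMIs, with none left out, the Dkk2 shares were 73.3% and 6.00% and the Wnt5a shares 80.2% and 20.3%. The median depth of the Foxa1-positive cells was 9110 UMIs before thinning and that of the others 11916.5. Gating Epcam on thinned counts leaves out cells under 10000 UMIs, and with that gate the log2 ratio of Dkk2 in Epcam-positive cells was 0.56 instead of 1.26, below 2-fold. Foxa1-positive cells also stood far from the Pdgfra-positive cells of iWAT, with Dkk2 19.5-fold, Wnt5a 6.72-fold, Wnt4 15.6-fold and Wnt10b 25.8-fold higher and Sfrp1 8.32-fold lower, in a comparison in which 16.0% of genes were at least 2-fold higher and 13.9% lower. Sfrp2 was also 3.12-fold higher than in those cells, and Wisp1 was 2.66-fold and Dkk3 2.25-fold lower. Wnt4, Wnt10b and Sfrp2 reached the filter through the Foxa1-positive cells alone.

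**Figure D3:**
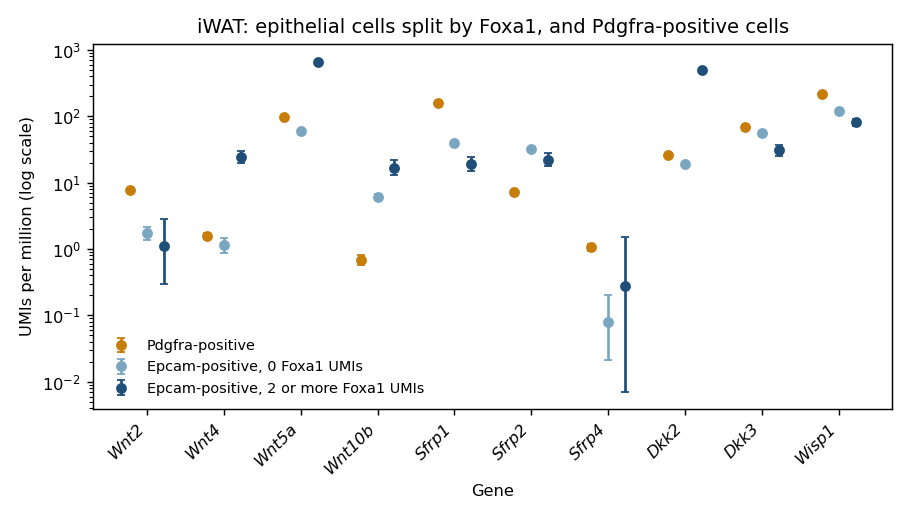
CPM (log scale) of the 10 genes in iWAT, in Pdgfra-positive cells and in Epcam-positive cells with 0 or with 2 or more Foxa1 UMIs, with exact Poisson 95% intervals. Dkk2 (496 CPM), Wnt5a (662 CPM), Wnt4 (24.6 CPM) and Wnt10b (16.9 CPM) are highest in the Foxa1-positive cells, and Sfrp1 (19.1 CPM) is lowest there.

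Sox10-positive cells differed between the libraries, as their other markers did. In iBAT, where they carried Schwann markers, Sfrp1 remained high at 475 CPM against 711 CPM in the comparison cells, while Wnt5a was at 25.4 against 99.7 CPM, Dkk3 at 17.0 against 68.6 CPM, Wisp1 at 49.9 against 120 CPM, Sfrp2 at 22.9 against 71.1 CPM and Dkk2 at 4.55 against 10.03 CPM. These 5 of the 6 genes above the filter were at least 2-fold lower and 0 were higher, where 7.98% of all genes were lower and 7.35% higher. Of the 5, Dkk2 reached the filter through the comparison cells alone. With Sox10 gated at 1 UMI the count lower was 1 (Dkk3) in place of 5. In these cells the summed immune markers were also higher, at 94.4 against 50.7 CPM, mostly through Lyz2 (59.6 against 28.7 CPM), while Csf1r was lower (6.73 against 10.1 CPM). The summed mural markers were at 193 against 53.8 CPM through Cspg4 alone (185 against 28.5 CPM), with Rgs5, Notch3, Abcc9 and Kcnj8 not higher. Of the 793 Sox10-positive cells of iBAT, 161 were also Pdgfra-positive, and the summed stromal markers were at 13258 against 11824 CPM. The part of these markers and cells in the values was not tested. In iWAT, where most Sox10-positive cells were epithelial by their markers, Sfrp2 was at 34.4 against 7.09 CPM, the 1 gene at least 2-fold higher (background 10.7%), which reached the filter through the Sox10-positive cells alone, so that count is no result. Wnt5a, Sfrp1, Dkk2 and Wisp1 were the 4 that were at least 2-fold lower (background 11.9%), a count that was 1 with the gate at 1 UMI and 2 with the gate on thinned counts. Of the 4, Dkk2 (6.35 against 25.7 CPM) reached the filter through the comparison cells alone.

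Leaving out the Sox10-positive cells with any Epcam UMI, a gate chosen after values had been seen, left 128 cells in iWAT, with 6 of 6 Schwann and 5 of 7 epithelial markers at least 2-fold higher, and 790 cells in iBAT. In the 128 cells of iWAT, Sfrp1 stood at 170 CPM against 156 CPM in the comparison cells, a ratio of 1.09 (0.962 to 1.22). Sfrp2 was at 9.23 against 7.09 CPM (15 UMIs), and neither gene differed beyond counting error. Short of 2-fold, Dkk3 was higher at 99.1 against 69.0 CPM, a ratio of 1.44 (1.22 to 1.68). Wisp1 was lower at 139 against 214 CPM, a ratio of 0.650 (0.568 to 0.741). Dkk2 was at 3.69 against 25.7 CPM (6 UMIs) and was the 1 gene of 5 above the filter that was at least 2-fold lower, where 6.53% of all genes were, and 0 were higher, where 8.38% were. It reached the filter through the comparison cells alone. In the 790 cells of iBAT, Sfrp1 stood at 476 against 711 CPM, and at equal depth it was present in 85.8% (83.2 to 88.2) of them, against 52.2% (39.7 to 64.6) of the 67 iWAT cells deep enough to be thinned. The same 5 genes as before were at least 2-fold lower in iBAT and 0 were higher, where 8.03% and 7.35% of all genes were.

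Adipoq-positive cells of iBAT had a level of Sfrp2 like that of the comparison cells and less Dkk2, Dkk3 and Wisp1. Sfrp2 stood at 69.5 against 71.3 CPM, a ratio of 0.974 (0.850 to 1.11). Sfrp1 was lower but short of 2-fold, at 525 against 708 CPM with a ratio of 0.741 (0.705 to 0.777), and Sfrp4 had 1 UMI. Dkk2 was at 2.51 against 10.1 CPM (8 UMIs in 110 cells), Dkk3 at 33.0 against 68.5 CPM and Wisp1 at 55.0 against 120 CPM. These 3 of 6 genes were at least 2-fold lower, where 4.55% of all genes were, and 0 were higher, where 6.98% were. Of the 3, Dkk2 reached the filter through the comparison cells alone. In the 75 of these cells that were also Pdgfra-positive only Dkk2 stayed at least 2-fold lower. With Adipoq gated at 1 UMI no gene was both at the filter and at least 2-fold lower. The ratio of Dkk2 itself stayed at least 2-fold lower in every setting tried, whether or not Dkk2 reached the filter. The summed stromal markers were also lower in the Adipoq-positive cells, at 6658 against 11847 CPM. The summed mural markers were higher, at 126 against 53.9 CPM, mostly through Abcc9 (94.9 against 7.06 CPM), while Cspg4 (10.4 against 29.0 CPM) and Rgs5 were lower. The part of these in the values was not tested.

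Of the genes at the filter, Dpp4-positive cells had none of the 10 at least 2-fold different in either library, where 0.115% of genes were higher and 0.323% lower in iWAT and 0.399% and 0.433% in iBAT. Wnt2, which is known to mark Dpp4-expressing progenitors in tissue, stood at 5.36 CPM in the Dpp4-positive cells of iWAT against 8.67 CPM in the comparison cells, and at 7.50 against 4.27 CPM in those of iBAT. Wnt2 was thus on opposite sides in the 2 depots.

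**Figure D4:**
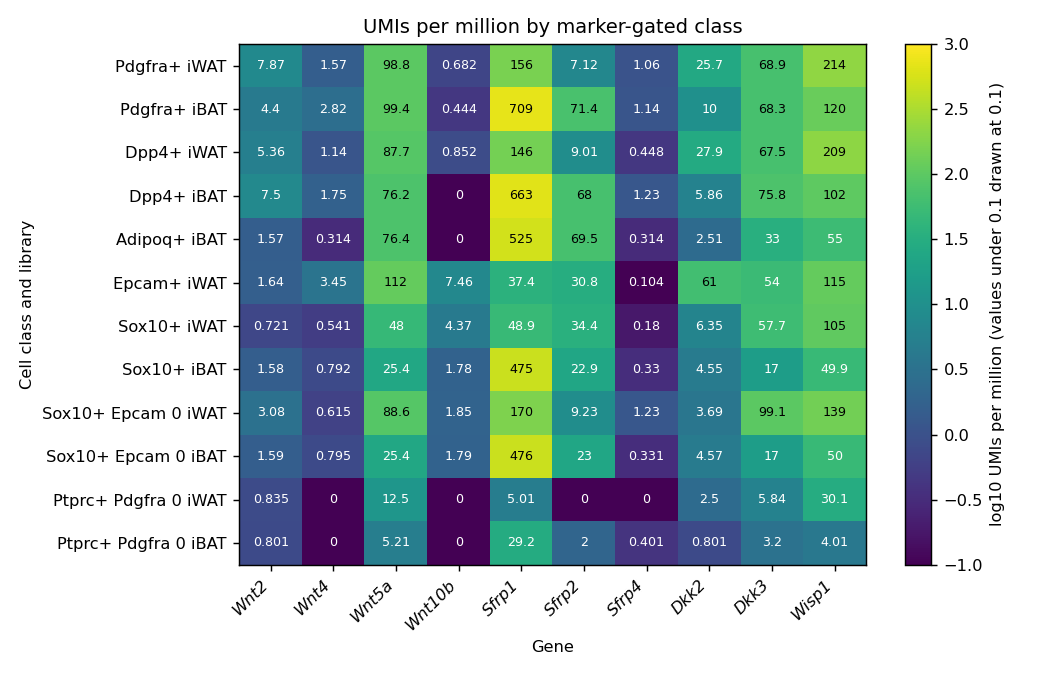
CPM of each gene (columns) in each marker-gated class and library (rows), printed in the cells and coloured on a log10 scale. Sfrp1 stands out in every iBAT Pdgfra-positive, Dpp4-positive, Adipoq-positive and Sox10-positive row (475 to 709 CPM), and no gene is above 30.1 CPM in the immune rows at the bottom.

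In cells in division, none of the 10 genes differed by 2-fold at the filter. In Pdgfra-positive cells with 2 or more UMIs of Mki67, a marker of cycling cells, Sfrp1 stood at 530 CPM against 916 CPM in those with none in iBAT, and at 148 against 166 CPM in iWAT. Sfrp2 stood at 54.4 against 89.9 CPM in iBAT and at 7.62 against 6.86 CPM in iWAT. Wnt5a was at 103 against 96.5 CPM in iBAT and at 101 against 96.6 CPM in iWAT. In iBAT, Dkk3 stood at 53.3 against 84.6 CPM and Wnt4 at 2.04 against 3.60 CPM, ratios near those of Sfrp1 and Sfrp2, while Dkk2 was 1.59-fold higher in the cycling cells, at 12.2 against 7.69 CPM. Dkk2 went the other way in iWAT, at 22.9 against 28.1 CPM, a ratio of 0.815 (0.769 to 0.864). Among all genes at the filter, 4.46% were at least 2-fold higher and 0.427% lower in iBAT, and 3.64% and 0.159% in iWAT. In cells without Mki67 the depots stood further apart in Sfrp1 (166 and 916 CPM) than in those with it (148 and 530 CPM).

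Genes that meet these signals were counted from lists in the same Pdgfra-positive cells. Of 15 other Wnt ligands, 2 reached the filter, Wnt9a at 17.3 CPM in iWAT against 2.41 in iBAT and Wnt11 at 13.8 and 3.98 CPM, and both were at least 2-fold higher in iWAT. They reached the filter through iWAT alone, so that count is no result. Of 19 other secreted modulators, 8 reached it, and 4 were at least 2-fold higher in iBAT and 0 in iWAT, beside 3.51% and 4.40% of all genes. These were the decoy Frzb (5.03 CPM in iWAT, 23.2 CPM in iBAT), Rspo3, an R-spondin that strengthens Wnt signals (7.03, 17.3 CPM), Ccn3 (20.9, 42.4 CPM) and Ccn5 (58.4, 342 CPM). Ccn3 and Ccn5 are both relatives of Wisp1 in the same matricellular family. Frzb and Rspo3 reached the filter through iBAT alone. Both Ccn3 and Ccn5 stood on the other side from Wisp1.

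Of 23 receptors and receptor regulators, 16 reached the filter, with 1 higher in iBAT, the Frizzled Fzd1 (39.5 CPM in iWAT, 108 CPM in iBAT), and 2 higher in iWAT (beside the same 3.51% and 4.40% of all genes), the R-spondin receptor Lgr6 (48.9, 16.1 CPM) and Kremen1 (109, 52.9 CPM), which acts with Dickkopf proteins. Of 19 genes for Wnt secretion and intracellular signaling, 17 reached it and 0 passed 2-fold, among them Wls, the carrier that brings Wnts to the cell surface (323, 282 CPM), and Ctnnb1, which encodes beta-catenin (447, 575 CPM). Of 12 known target genes, 6 reached it. Nkd2 (9.73, 20.1 CPM) and Ccnd1 (120, 417 CPM), the latter a cyclin with many inputs besides Wnt, were higher in iBAT, and Tcf7 (11.4, 2.57 CPM) was higher in iWAT. Nkd2 and Tcf7 each reached the filter through the higher library alone. The median log2 ratios of the genes at the filter were 0.45 for the modulators, -0.22 for the receptors, 0.06 for the signaling genes and -0.21 for the targets, beside 0.04 for all genes.

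**Figure D5:**
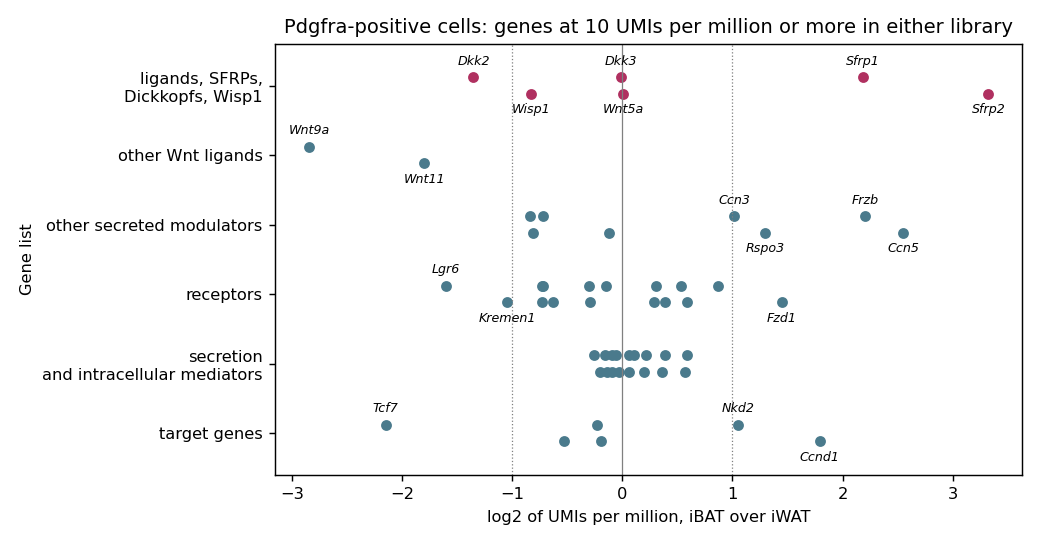
Log2 ratio of CPM, iBAT over iWAT, in Pdgfra-positive cells for genes at 10 CPM or more in either library, 1 point per gene, for the 6 of the 10 genes at that level (red) and for the 5 pathway lists (blue), with dotted lines at 2-fold. Sfrp1, Sfrp2, Frzb and Ccn5 lie furthest to the iBAT side and Wnt9a, Tcf7, Wnt11, Lgr6 and Dkk2 furthest to the iWAT side, while the 17 signaling genes lie within 2-fold.

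In the Epcam-positive cells of iWAT, 4 of the 15 other ligands reached the filter and all 4 were at least 2-fold higher than in the comparison cells. These were Wnt7b (40.6 against 0.265 CPM), Wnt5b (38.9 against 3.72 CPM), Wnt9a (53.1 against 16.7 CPM) and Wnt11 (48.7 against 13.5 CPM). A ligand scarce in the comparison cells could reach the filter only by being high here, so the count itself is no result. Of the receptors, 18 reached the filter, with 2 higher, Fzd6 (42.9 against 3.37 CPM) and Fzd3 (19.6 against 6.16 CPM), both through the Epcam-positive cells alone, and 3 lower, Fzd4 (12.3 against 25.1 CPM), Ror2 (7.96 against 23.98 CPM) and Kremen1 (52.3 against 110 CPM). Of the 3 lower, Ror2 reached the filter through the comparison cells alone. Of the other modulators, 6 reached it, with 0 higher and 4 lower (Ccn3, Ccn5, Gpc3 and Gpc4), beside 9.42% of all genes higher and 10.2% lower. In the Sox10-positive cells of iBAT, 7 of the 8 other modulators at the filter were at least 2-fold lower and 0 higher, beside 7.98% and 7.35% of all genes. Of 17 receptors at the filter, 2 were higher (Fzd3 and Lgr6) and 5 lower (Fzd2, Fzd4, Fzd5, Ror2 and Ptk7). A gene scarce in 1 group could reach the filter only by being high in the other, so these counts of modulators and receptors are no result. Of 6 target genes at the filter, 3 were higher, Nkd2 (205 against 19.5 CPM), Tcf7 (29.0 against 2.48 CPM) and Ccnd1 (1721 against 413 CPM), and 1 was lower, Twist1 (24.7 against 97.6 CPM). Of the 3, Tcf7 reached the filter through the Sox10-positive cells alone.

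Exons of a gene on the other strand overlap those of Sfrp2 (Gm26771), Wisp1 (Gm46514), Wnt10b (Wnt1) and Wnt5a (Gm2670) in GENCODE. Whether strand was used in counting is not given in the sources used here, so reads of these pairs cannot be told apart. Counts assigned to Gm26771, Gm2670 and Wnt1 were at most 0.946 CPM over the kept, Pdgfra-positive, Epcam-positive and Sox10-positive cells of either library.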

How the data were processed

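Per gene and cell, the deposited files give unnormalized UMI counts, which the authors made from BD Rhapsody whole-transcriptome libraries aligned on a commercial cloud pipeline. The submitters' processing notes name mm39 and Seurat 5.0.0. Per the labels each library pools 4 tagged cultures, whereas the published methods name vehicle, FGF1 and FGF2 only, and the difference was not resolved. Counts were filtered per cell, summed over marker-gated cells and scaled to 1000000 (CPM) in Python 3.11.15 with numpy 2.4.6, scipy 1.17.1, pandas 2.3.3 and matplotlib 3.10.9. No length correction was made, since a UMI counts a molecule once. Summed counts carry exact Poisson intervals, ratios exact conditional binomial intervals and shares Clopper-Pearson intervals, at 95%.

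Genes were compared at 10 CPM or more in either group of cells and called at 2-fold, with no p-value. Classes under 50 cells, Adipoq in iWAT and Epcam in iBAT, gave no comparison. A listed marker of 1 class and the results that need it are not reported here. No doublet caller was run, and cells positive for a second lineage marker were left out in an alternative. The 10 genes, the marker and pathway lists and the alternatives were chosen with earlier results of these data known. All 10 genes are named, listed pathway genes were named from those at 2-fold or at 20 CPM or more, and the 3 most similar genes were taken for those of the 10 at 20 CPM in both libraries. Fold calls and intervals were tested on simulated data, and thinning was checked on the iWAT counts themselves. The simulation used only genes more abundant in iWAT than Wnt2, Wnt4, Wnt10b, Sfrp2 and Sfrp4, so ratios on few UMIs were not covered. RefSeq promoter windows (GRCm38.p6) and GENCODE M39 positions (GRCm39) were matched by symbol.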

Additional observations from a re-analysis of the deposited data

Results flagged for a closer look

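In the Dpp4-positive and Sox10-positive classes, the class difference of 3 genes pointed in opposite directions in the libraries of iWAT and iBAT, with counting intervals on either side of 0. With 1 library per depot, none of these differences was tested. Wnt2 in Dpp4-positive over comparison cells had a log2 ratio of -0.69 in iWAT and 0.81 in iBAT, on levels under 10 CPM. Dkk2 in Dpp4-positive cells had 0.31 in iWAT and -0.79 in iBAT, the latter from 57 UMIs. Sfrp2 in Sox10-positive cells had 2.28 in iWAT, where 1486 of 1690 such cells were also Epcam-positive, and -1.63 in iBAT, where 0 of 793 were. The same was seen in finer splits. Dkk3 in Sox10-positive cells with 0 Epcam UMIs had 0.52 in iWAT and -2.01 in iBAT. Dkk2 in Pdgfra-positive cells with Mki67 over those without had -0.30 in iWAT and 0.67 in iBAT.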

How the results depend on the processing

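No paired analysis was possible because each depot had 1 library and the labels give no replicate numbers. The count of genes at least 2-fold higher in iBAT stayed at 2 in every setting tried, for kept and for Pdgfra-positive cells. At a filter of 50 CPM the count higher in iWAT fell from 1 to 0 for both, since Dkk2 lies below that level, and with no gene filter it was 2 for kept cells. The count higher in Epcam-positive cells of iWAT fell from 2 to 1 at 50 CPM and with the gate on thinned counts. In Sox10-positive cells of iWAT the count higher fell from 1 to 0 at 50 CPM and in cells with 0 Epcam UMIs. The count lower there fell from 4 to 1 with 0 Epcam UMIs, to 1 with the gate at 1 UMI and to 2 with the gate on thinned counts. In iBAT the count lower in Sox10-positive cells fell from 5 to 1 with the gate at 1 UMI. The count lower in Adipoq-positive cells fell from 3 to 0 with the gate at 1 UMI and to 1 in cells that were also Pdgfra-positive, and that in Dpp4-positive cells went from 0 to 1 with the gate at 3 UMIs (Dkk2). The log2 ratio of Sfrp1 in Sox10-positive cells of iWAT, -1.68, became 0.12 with 0 Epcam UMIs. Apart from filter and gate changes built into a setting, the cause was not tested. Settings chosen after seeing the data were those on Epcam, Foxa1 and the cells also Pdgfra-positive. Rescaling by TMM or by the median of ratios moved the depot ratios by 0.04 or less. Depth limits Wnt10b, Sfrp4, Wnt4 and Wnt2, which stood under 10 CPM in Pdgfra-positive cells.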
